A study of Mus musculus with 29 samples.

Results

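The serpins, a superfamily of protease inhibitors, were followed through early pregnancy in the mouse uterus after neonatal exposure to genistein, a soy isoflavone with oestrogenic activity. Members were the non-control array probes whose gene name, or whose current symbol found through the probe's accession, begins with Serpin followed by a clade letter and a number. This gave 73 probes for 54 genes, of 41174 probes and 27671 gene names on the array, and each gene was read from its brightest probe. CD-1 female mice had been given genistein (GEN, 50 mg/kg/day) or the corn oil control (CON) on postnatal days 1 to 5. Once these females were pregnant, uteri were taken at gestation day (GD) 1.5, 3.5, 4.5 or 5.5. The CON groups held 3, 3, 4 and 4 arrays on these days in turn and the GEN groups held 4, 3, 4 and 4, which makes 29 one-colour arrays of total uterine RNA. Nothing in the labels says that the samples of a group came from separate animals, so every p-value measures only the spread between these samples, which may be technical.

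An inhibitory serpin offers a reactive loop that the target protease cuts, after which the serpin changes shape and holds the protease in a covalent complex. Clade A members, such as alpha1-antitrypsin (Serpina1) and the relatives of antichymotrypsin (Serpina3), are mostly secreted, whereas clade B members mostly stay inside cells and guard them against granzymes, cathepsins and other stray proteases. In the pregnant uterus serpins act where matrix is remodelled, where clotting and plasminogen activation are restrained, and where leukocytes with granule proteases enter the decidua, the stromal tissue that forms around an implanting embryo.

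Of the 54 genes, 19 belonged to the clade A cluster of chromosome 12, 12 to the clade B cluster of chromosome 1, 12 to the clade B cluster of chromosome 13, and 11 lay elsewhere. On the mm7 (NCBI35) coordinates of the array files, the probes of these clusters span 101109198 to 101908089, 106781864 to 107504598 and 32208400 to 33336379, respectively. Exon and UTR annotation of that build was not used here. A signal well above background was present for 48 genes on at least 1 array, for 46 on at least 3 arrays and for 24 on all 29. The 6 genes without such a signal on any array were Serpina12 (vaspin), Serpina1f, Serpina6 (corticosteroid-binding globulin), Serpina7 (thyroxine-binding globulin), Serpinb13 and Serpinb9b. Near-identical copies, such as Serpina1b, Serpina1d and Serpina1e, Serpina3f and Serpina3g, or the Serpinb3 and Serpinb9 genes, may bind each other's probes, so their values are uncertain as those of single genes and are not independent.

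Levels are log2 intensities minus the 75th percentile of the same array, so 0 is that array's upper quartile; they compare samples for 1 probe, not one gene with another. In whole uterus, fewer cells of a type and less RNA per cell cannot be told apart. Between 65.53% and 80.85% of spots were well above background, and arrays of a group correlated with each other at 0.968 to 0.995. The lowest mean correlation with its own group was that of GD4.5 GEN array 4 (0.97). GD1.5 and GD3.5 arrays shared slides, except GD3.5 CON array 3, which was alone on its slide and scan. GD4.5 and GD5.5 arrays shared another set of slides, so the step from GD3.5 to GD4.5 coincides with a change of slides and was not tested.

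Promoter windows are printed for members with similar courses, so that their upstream letters can be compared. Each is the 250 bases before the RefSeq start, 5′ to 3′ on the gene's strand (GRCm38.p6). Windows were found for 44 of the 54 genes, 52 in all. Serpinb6b (chr13:32965011-32965260, plus strand) and Serpinb6c (chr13:33905192-33905441, minus strand) are shown because both rose from GD4.5 to GD5.5, with GGGCGG in capitals.
Serpinb6b: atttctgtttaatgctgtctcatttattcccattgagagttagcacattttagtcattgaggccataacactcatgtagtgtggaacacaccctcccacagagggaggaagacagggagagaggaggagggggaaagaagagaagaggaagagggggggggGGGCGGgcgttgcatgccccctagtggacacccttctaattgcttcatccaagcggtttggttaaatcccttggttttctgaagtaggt
Serpinb6c: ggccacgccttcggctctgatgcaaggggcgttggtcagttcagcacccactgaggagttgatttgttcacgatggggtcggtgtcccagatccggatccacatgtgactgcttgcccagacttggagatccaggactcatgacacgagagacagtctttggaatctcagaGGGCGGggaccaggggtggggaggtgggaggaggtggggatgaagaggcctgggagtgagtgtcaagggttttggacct
In a global alignment the windows of Serpinb6b and Serpinb6c were 45.9% identical. GGGCGG, searched on both strands, began 89 bases before the start of Serpinb6b and 79 bases before that of Serpinb6c. It was present in 32.7% of all 32851 windows and in 3 of the 11 windowed genes of the chromosome 13 cluster (Serpinb6a, Serpinb6b and Serpinb6c). The change of Serpinb6a from GD4.5 to GD5.5, given below, did not pass in either exposure.

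Serpina1b (chr12:103738190-103738439, minus strand) and Serpina1d (chr12:103773634-103773883, minus strand) are shown because both fell from GD4.5 to GD5.5. AGAACA lies on their opposite strand, so its reverse complement, TGTTCT, is in capitals.
Serpina1b: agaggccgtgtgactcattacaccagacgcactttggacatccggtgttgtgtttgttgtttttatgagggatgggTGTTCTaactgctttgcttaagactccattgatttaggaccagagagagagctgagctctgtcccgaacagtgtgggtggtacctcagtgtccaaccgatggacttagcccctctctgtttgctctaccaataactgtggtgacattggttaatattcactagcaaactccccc
Serpina1d: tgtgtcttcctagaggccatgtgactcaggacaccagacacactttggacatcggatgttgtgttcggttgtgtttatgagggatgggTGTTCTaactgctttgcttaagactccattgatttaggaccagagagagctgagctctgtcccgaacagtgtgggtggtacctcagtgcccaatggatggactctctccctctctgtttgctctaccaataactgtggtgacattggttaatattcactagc
The Serpina1b and Serpina1d windows were 85.1% identical, against 64.6% for Serpina1b with Serpina1e and 48.3% for Serpina1d with Serpina1e. AGAACA was present in 16.1% of all windows and in 9 of the 13 windowed genes of the clade A cluster.

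Serpinb5 (chr1:106860925-106861174), Serpinb7 (chr1:107422439-107422688) and Serpinb11 (chr1:107362064-107362313), all on the plus strand, are shown because they fell from GD1.5 to GD3.5 in GEN uteri, with TGANTCA in capitals.
Serpinb5: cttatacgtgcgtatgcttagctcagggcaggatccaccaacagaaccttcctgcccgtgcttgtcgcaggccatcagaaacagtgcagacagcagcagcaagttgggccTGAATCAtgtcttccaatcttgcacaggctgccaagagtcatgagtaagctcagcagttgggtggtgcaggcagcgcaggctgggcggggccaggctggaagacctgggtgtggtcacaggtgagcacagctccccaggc
Serpinb7: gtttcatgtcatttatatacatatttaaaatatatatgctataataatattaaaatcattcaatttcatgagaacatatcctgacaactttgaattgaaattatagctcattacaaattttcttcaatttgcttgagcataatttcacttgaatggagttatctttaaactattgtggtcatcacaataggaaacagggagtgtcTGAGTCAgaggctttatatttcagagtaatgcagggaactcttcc
Serpinb11: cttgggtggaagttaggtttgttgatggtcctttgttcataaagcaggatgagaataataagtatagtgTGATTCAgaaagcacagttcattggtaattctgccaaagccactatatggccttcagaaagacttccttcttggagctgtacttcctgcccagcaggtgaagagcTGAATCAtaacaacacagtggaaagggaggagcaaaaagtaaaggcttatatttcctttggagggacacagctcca
Identity was 47.7% between Serpinb5 and Serpinb7, 53.0% between Serpinb7 and Serpinb11 and 47.9% between Serpinb5 and Serpinb11. TGANTCA, which reads the same on both strands, was in 6.75% of all windows. It was in 7 of 11 windowed genes of the chromosome 1 cluster (Serpinb2, Serpinb5, Serpinb7, Serpinb8, Serpinb10, Serpinb11 and Serpinb12) and in 0 of 11 of the chromosome 13 cluster. TGANTCA was also in 2 of 13 windowed genes of the clade A cluster (Serpina1b and Serpina1d) and in 0 of 9 of the other serpins. TATAAA (12.4% of all windows) and TTCNNNGAA (7.02%) were searched too, and were in 14 and 7 of the 44 windowed serpin genes. A match describes letters and not a bound site.

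From GD4.5 to GD5.5, the days over which decidua forms, intracellular clade B serpins of chromosome 13 gave the largest rises among the serpins. In CON uteri 19 of 43 serpins tested passed an adjusted p of 0.05, 8 higher and 11 lower, where 30.1% of all genes tested passed (16% higher and 14% lower). In GEN uteri 8 of 37 passed, 4 higher and 4 lower, where 21% of all genes passed (12.4% higher and 8.67% lower). The 2 days did not overlap for 15 of the serpins in CON and 10 in GEN, where 27.2% and 14.3% of all genes did not. The median log2 difference over the serpins tested was -0.282 in CON and -0.131 in GEN, beside 0.023 and 0.085 over all genes. With arrays scaled to their median instead, the CON split became 8 higher and 6 lower. Leaving out GD5.5 CON array 1, GD4.5 CON array 3 or GD4.5 CON array 1 brought the CON count to 9, 11 and 12. In the fit of the 8 GEN arrays alone, 0 serpins and 0 of all genes passed by limma (Serpinb6b had an adjusted p of 0.0853), so every GEN call rests on the spread shared by all 8 groups.

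**Figure D1:**
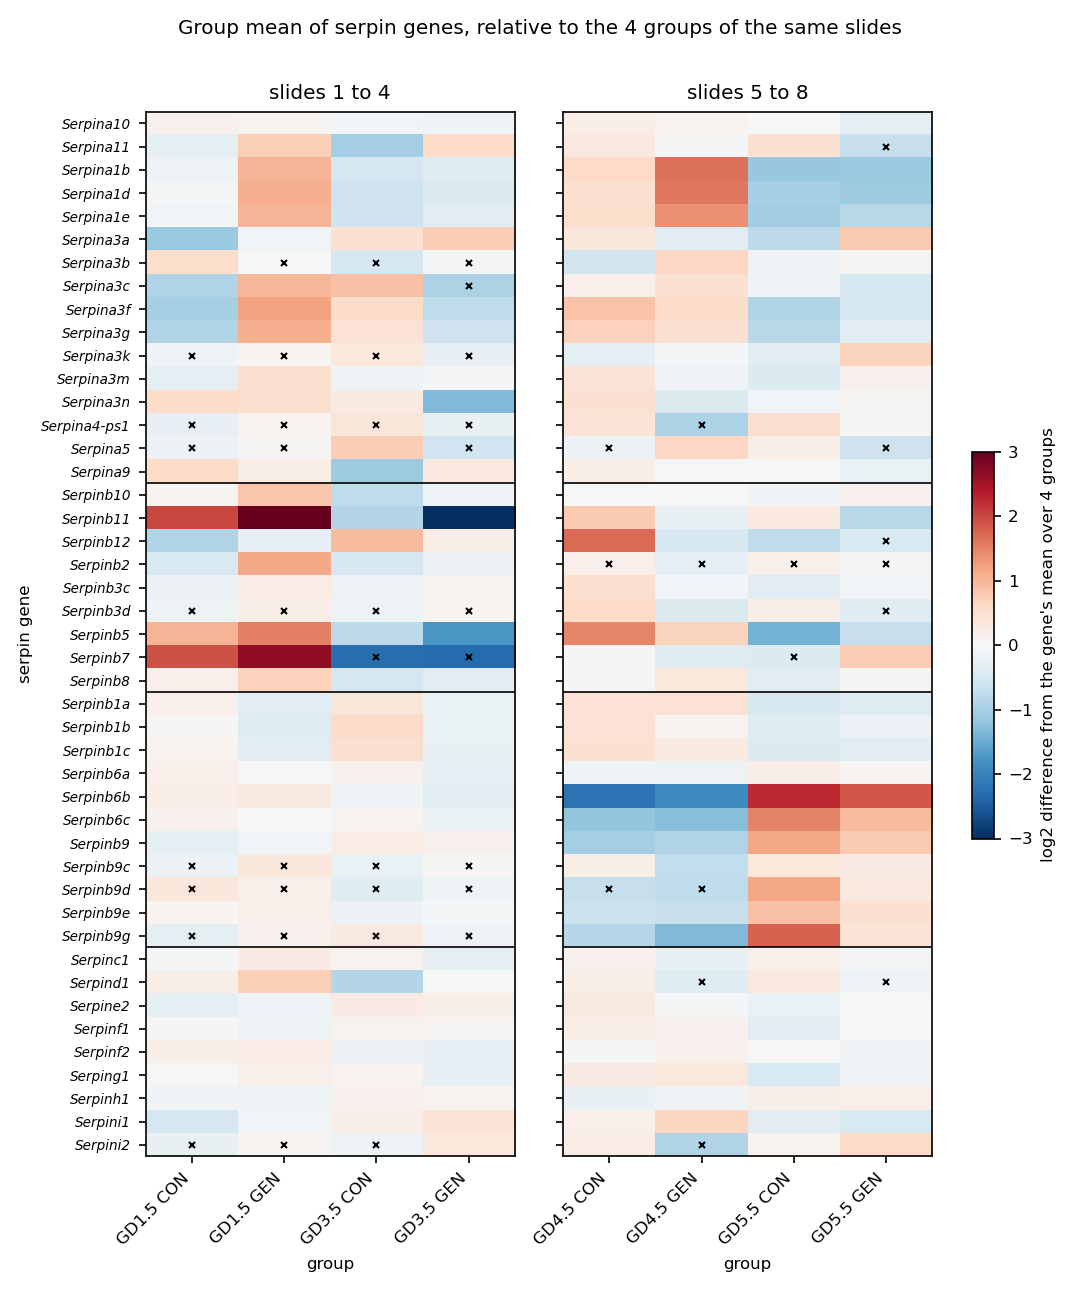
Group means of 45 of the 46 serpin genes with a signal above background on 3 or more arrays (rows), in the 8 day-by-exposure groups (columns); colour is the log2 difference from the gene's mean over the 4 groups on the same slides, limited to 3 either way, and a cross marks a group with no array well above background. Serpinb6b, Serpinb6c and Serpinb9 are high in both GD5.5 columns, and Serpinb11 is high in both GD1.5 columns and lowest in GD3.5 GEN.

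Serpinb6b, a mouse paralogue of the intracellular inhibitor SERPINB6 (probe on chromosome 13, 32344418 to 32344477, mm7), was at 0.71, 1.13, 0.3 and 0.56 in GD4.5 CON uteri and at 5.3, 5.81, 4.88 and 4.54 in GD5.5 CON uteri. GEN uteri had 1.44, 2.08, 0.3 and 0.21 on GD4.5 and 5.19, 4.68, 3.8 and 5.38 on GD5.5. All 8 arrays of GD5.5 were above all those of GD4.5. The log2 difference was 4.46 (SE 0.37, 22.0-fold, adjusted p = 4.65e-08, limma) in CON and 3.75 (SE 0.37, 13.5-fold, adjusted p = 2.78e-06) in GEN.

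Serpinb6c, a second paralogue in the cluster (33298268 to 33298326), went from -1.38, -1.34, -1.46 and -1.52 to 1.51, 1.73, 1.19 and 0.42 in CON uteri. In GEN uteri it went from -1.36, -1.15, -1.47 and -2.24 to 1.39, 0.78, -0.54 and 1.07. The days did not overlap in either exposure, and GD5.5 GEN array 3 was the lowest of its day. Serpinb6c rose by 2.63 (SE 0.32, adjusted p = 4.95e-06) in CON and by 2.23 (SE 0.32, adjusted p = 0.000137) in GEN. For Serpinb6a the differences were 0.30 (SE 0.16, adjusted p = 0.178) and 0.22 (SE 0.16, adjusted p = 0.353).

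Serpinb9, the intracellular inhibitor of granzyme B (32383049 to 32383108), was at -1.53, -1.81, -1.82 and -1.43 in GD4.5 CON uteri and at 0.77, 0.75, 0.38 and 0.29 in GD5.5 CON uteri. The GEN values were -1.58, -1.43, -1.72 and -1.4, then 0.29, 0.14, -0.5 and 0.7. Again no GD5.5 array reached down to the GD4.5 arrays. Serpinb9 rose by 2.19 (SE 0.19, 4.57-fold, adjusted p = 7.18e-08) in CON and by 1.69 (SE 0.19, adjusted p = 1.83e-05) in GEN, and its other probe gave 2.01 and 1.65.

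Dimmer Serpinb9 relatives also rose in CON uteri. Serpinb9g went from -6.22, -5.44, -5.84 and -8.21 to -3.57, -3.22, -3.66 and -4.79, a rise of 2.62 (SE 0.62, adjusted p = 0.00283). Without GD4.5 CON array 4 the rise was 2.02 (adjusted p = 0.0156). With normexp background correction, which models each probe's local background, Serpinb9g gave 0.82 and lost its call (adjusted p = 0.11). Capped normexp, in which high local backgrounds were first set to the array's median, was chosen after seeing the data. With it Serpinb9g gave 0.82 and kept the call (adjusted p = 0.000743). Its GD5.5 GEN arrays, at -5.16, -5.61, -6.74 and -3.23, were more spread, and the GEN difference of 1.72 had an adjusted p of 0.0502. Serpinb9d was not well above background on GD4.5 in CON and was at least 1.86-fold higher on GD5.5. The fit, which took its GD4.5 readings at face value, gave 1.85 (adjusted p = 0.00713). Serpinb9d lost its call with normexp (0.39, adjusted p = 0.632) and kept it with capped normexp (0.39, adjusted p = 0.0204). Without GD5.5 CON array 1, 2 or 4 too few arrays were above background to test it. Serpinb9e rose by 1.52 (SE 0.50, adjusted p = 0.0233) in CON, and in GEN differed by 1.14 (adjusted p = 0.101). Serpinb9c passed in GEN only by a small margin (0.98, SE 0.34, adjusted p = 0.043). That call was lost in 5 of 10 other ways of processing the arrays. It was also lost without GD4.5 GEN array 2 (adjusted p = 0.0624), GD4.5 GEN array 3 (0.49, adjusted p = 0.189) or GD5.5 GEN array 4 (adjusted p = 0.0799), and could not be tested without GD4.5 GEN array 1 or GD5.5 GEN array 2 or 3. In CON Serpinb9c gave 0.14 (adjusted p = 0.813).

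In the same cluster Serpinb1a, an inhibitor of neutrophil elastase, and its neighbour Serpinb1c moved the other way in CON uteri; both are named after their values were seen. Serpinb1a was at 2.84, 2.31, 2.84 and 2.9 on GD4.5 and at 1.62, 1.97, 1.89 and 1.69 on GD5.5, without overlap. It fell by 0.93 (SE 0.30, adjusted p = 0.0226), and Serpinb1c fell by 0.86 (SE 0.29, adjusted p = 0.0293). Over the cluster, 6 of 11 genes rose and 2 fell in CON (median 1.516), and 4 of 10 rose and 0 fell in GEN (median 1.06). Of all genes tested, 16% rose and 14% fell in CON, and 12.4% rose and 8.67% fell in GEN.

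**Figure D2:**
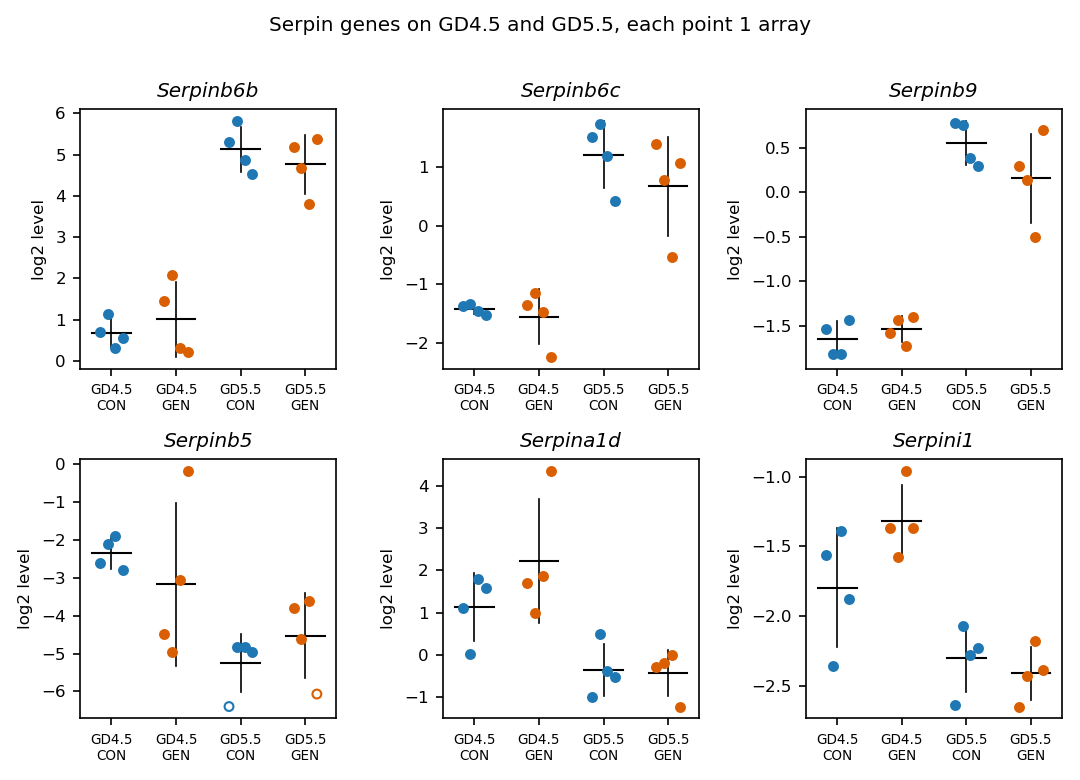
Log2 level relative to the array's 75th percentile on each GD4.5 and GD5.5 array for 6 serpins (points; blue CON, orange GEN; open circles not well above background), with the group mean as a line and the SD as a bar. Serpinb6b, Serpinb6c and Serpinb9 do not overlap between days in either exposure, whereas the GD5.5 GEN arrays of Serpinb5 range from -6.07 to -3.61.

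Markers of decidual stroma moved with these rises: 9 of 10 rose in CON and 7 of 10 in GEN, among them the decidual prolactin gene Prl8a2 (adjusted p = 2.47e-06 in CON) and the growth factor gene Bmp2 (4.30, adjusted p = 5.55e-06, in CON). The mean level of the 10 markers was -1.96 to -0.35 in GD4.5 CON, -1.95 to 0.48 in GD4.5 GEN, 1.98 to 2.86 in GD5.5 CON and 0.88 to 2.68 in GD5.5 GEN. GD5.5 GEN array 3, lowest of its group for the marker mean, was also lowest of its group for Serpinb6b, Serpinb6c, Serpinb9 and Serpinb9g. Of 8 natural killer cell markers 1 rose in each exposure, and the mean of that list on GD5.5 was -1.26 to -0.31 in CON and -1.07 to -0.18 in GEN. The part of cell composition in the serpin rises was not tested.

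Of the leukocyte and mast cell serine proteases, among them targets of intracellular serpins, 6 of 16 rose and 3 fell in CON, and 5 of 14 rose in GEN. The granzymes Gzmf (4.83, adjusted p = 0.00149) and Gzmd (3.57, adjusted p = 0.00104) rose in CON. Gzmb, whose product Serpinb9 inhibits, gave 0.80 (SE 0.50, adjusted p = 0.254) in CON and 0.66 (SE 0.50, adjusted p = 0.359) in GEN. Of 8 cysteine cathepsins 0 rose, and 5 fell in CON and 1 in GEN.

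Among the secreted and matrix serpins, Serpinh1, the collagen chaperone Hsp47, was at 7.07, 7.31, 6.86 and 7.16 in GD4.5 CON and at 7.72, 7.53, 7.14 and 7.58 in GD5.5 CON. The groups overlapped slightly, and the rise was 0.40 (SE 0.13, adjusted p = 0.0195); in GEN the difference was 0.27 (SE 0.13, adjusted p = 0.125). Of 16 collagen and collagen maturation genes 5 rose and 5 fell in CON, with P4ha2, a prolyl hydroxylase subunit, at 1.32 (adjusted p = 3.96e-05) and Col3a1 at -0.60 (adjusted p = 0.000837). Serping1, the C1 inhibitor, went from 3.87, 3.83, 3.86 and 4 to 2.94, 3.25, 3.66 and 2.89 in CON, without overlap. It fell by 0.70 (SE 0.19, adjusted p = 0.00655), beside falls in 6 of 11 of its kinin, kallikrein and C1 list, and in GEN gave -0.42 (SE 0.19, adjusted p = 0.107). Serpinf1, the anti-angiogenic factor PEDF, fell by 0.52 (SE 0.14, adjusted p = 0.00632) in CON, with -0.67 by its other probe, and gave -0.13 (adjusted p = 0.517) in GEN.

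Serpini1, neuroserpin, an inhibitor of tissue plasminogen activator (chromosome 3, 75747845 to 75747904), was at -1.56, -2.36, -1.39 and -1.88 in GD4.5 CON and at -2.64, -2.07, -2.28 and -2.23 in GD5.5 CON. In GEN it was at -1.37, -1.58, -0.96 and -1.37, then at -2.65, -2.43, -2.18 and -2.39. The GEN days were separate and the CON days overlapped through GD4.5 CON array 2. Serpini1 fell by 0.50 (SE 0.18, adjusted p = 0.0334) in CON and by 1.09 (SE 0.18, adjusted p = 0.000333) in GEN. There normexp gave -0.29 (adjusted p = 0.18), and capped normexp kept the GEN call. The GEN call was also lost in the fit of the compared arrays alone (adjusted p = 0.104). Of 12 plasminogen activation genes, 4 rose and 3 fell in CON and 2 rose and 2 fell in GEN. The tissue activator gene Plat fell by 0.98 in CON (adjusted p = 0.00555), and the urokinase receptor gene Plaur rose by 1.62 in GEN (adjusted p = 0.00121).

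The alpha1-antitrypsin genes fell together. Serpina1d (chromosome 12, 101257751 to 101257810) was at 1.12, 0.01, 1.8 and 1.59 in GD4.5 CON and at -1, 0.48, -0.39 and -0.54 in GD5.5 CON. The GEN values were 1.69, 0.99, 1.87 and 4.36, then -0.3, -0.2, 0 and -1.23. GD4.5 GEN array 4 was far above the other GD4.5 arrays, and the days overlapped in CON but not in GEN. Serpina1d fell by 1.49 (SE 0.56, adjusted p = 0.0476) in CON and by 2.66 (SE 0.56, adjusted p = 0.00274) in GEN; without GD4.5 GEN array 4 the GEN difference was -1.95 (adjusted p = 0.0113). Serpina1b fell by 1.72 (adjusted p = 0.0222) and 2.75 (adjusted p = 0.00211), and Serpina1e by 1.56 (adjusted p = 0.0241) and 2.20 (adjusted p = 0.00561), in CON and GEN. With slide as a block none of these GEN falls passed (adjusted p = 0.0568, 0.0701 and 0.0835 for Serpina1b, Serpina1d and Serpina1e). With normexp the GEN falls of Serpina1b (-0.73, adjusted p = 0.202) and Serpina1e (-0.48, adjusted p = 0.394) did not pass. With capped normexp both did (-1.74, adjusted p = 0.00538, and -1.41, adjusted p = 0.0158). Of 7 hepatocyte markers 0 passed in either exposure, and in GEN Apoa1 and Fga had too few arrays above background to be tested. The mean level of the 7 was -4.21 to -3.76 in GD4.5 CON and -4.43 to -4.02 in GD5.5 CON.

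Serpina3f, an antichymotrypsin relative, went from -3.26, -3.47, -3.67 and -1.83 to -5.61, -4.05, -4.05 and -5.56 in CON, a fall of 1.76 (SE 0.66, adjusted p = 0.0482), and its close copy Serpina3g gave -1.53 (adjusted p = 0.0633). In GEN these gave -1.07 (adjusted p = 0.253) and -0.77 (adjusted p = 0.382). Macrophage markers fell too, 6 of 8 in CON and 2 of 8 in GEN, and their part in the clade A values was not tested. Over the clade A cluster 0 genes rose and 4 of 15 fell in CON, and 0 rose and 3 of 13 fell in GEN. Of all genes tested, 14% fell in CON and 8.67% in GEN. Apart from Serpina3f in CON, the clade A falls were those of Serpina1b, Serpina1d and Serpina1e. These copies may bind each other's probes, so their falls do not count as independent.

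Serpinb5, maspin, an epithelial serpin that does not act as a typical inhibitor (chromosome 1, 106781864 to 106781923), was at -2.62, -2.11, -1.91 and -2.79 in GD4.5 CON and at -6.4, -4.83, -4.82 and -4.95 in GD5.5 CON. In GEN it was at -4.49, -4.95, -3.06 and -0.18, then at -3.81, -4.62, -3.61 and -6.07. The CON days were separate and the GEN days overlapped, with GD4.5 GEN array 4 the highest of all 16. Serpinb5 fell by 2.89 (SE 0.69, 7.43-fold, adjusted p = 0.00295) in CON, and in GEN gave -1.36 (SE 0.69, adjusted p = 0.159). With normexp the CON difference was -1.33 and its call was lost (adjusted p = 0.0772). With capped normexp it was -1.33 and the call was kept (adjusted p = 0.0189). Serpinb12 fell by 2.46 (SE 0.68, adjusted p = 0.00852) in CON, from 3 arrays above background to 1, while its other probe gave -0.72 and the call was lost under both normexp background corrections (adjusted p = 0.749 and 0.269). Simple epithelium markers moved with these: 6 of 10 fell and 1 rose in CON, where their mean level was 1.60 to 2.27 on GD4.5 and 0.74 to 0.95 on GD5.5, and their part in the fall of Serpinb5 was not tested.

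From GD1.5 to GD3.5, from soon after mating to the time before implantation, the calls lay in the clade B cluster of chromosome 1. In CON 0 serpins rose and 1 of 36 tested fell, where 2.33% of all genes passed (1.03% higher and 1.3% lower), and in GEN 0 rose and 4 of 36 fell, where 4.76% passed (2.42% higher and 2.34% lower). The days did not overlap for 11 serpins in CON and 12 in GEN, where 23% and 28.4% of all genes did not. The median difference was -0.028 in CON and -0.326 in GEN, beside 0.02 and 0.011 over all genes. All 4 GEN falls were among the 8 genes of that cluster tested (median -1.154).

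Serpinb11, a clade B serpin (107280157 to 107280216), was at -0.01, -0.25 and -1.38 in GD1.5 CON and at -1.68, -4.65 and -3.99 in GD3.5 CON. In GEN it was at 0.23, 0.84, 0.58 and 0.99 on GD1.5 and at -7.99, -6.28 and -6.4 on GD3.5, where 2 of 3 arrays were well above background. The days were separate in both exposures. Serpinb11 fell by 7.54 (SE 0.80, adjusted p = 8.59e-06) in GEN, and with normexp the fall was smaller, -4.79 (adjusted p = 7.3e-05). In CON it gave -2.90 (SE 0.86, adjusted p = 0.08). The GEN minus CON difference of these changes was -4.65 (SE 1.18, adjusted p = 1) and did not pass.

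Serpinb7, megsin (107352177 to 107352237), was at -2.92, -5.37 and -6.48 in GD1.5 CON and at -6.03, -3.07, -4.28 and -3.29 in GD1.5 GEN. It was not well above background on any of the 6 GD3.5 arrays. Serpinb7 was lower on GD3.5 by at least 6.06-fold in CON and by at least 8.70-fold in GEN. The fit took the GD3.5 readings at face value and gave -4.18 (adjusted p = 0.018) in CON and -4.97 (adjusted p = 0.00153) in GEN. These p-values therefore do not test the bounds, and Serpinb7 met the filter for testing through its GD1.5 arrays alone. With normexp neither passed (adjusted p = 0.794 in CON and 0.421 in GEN). With capped normexp the GEN fall passed (-1.48, adjusted p = 0.00952) and the CON fall did not (-1.07, adjusted p = 0.121). The CON call was lost without GD3.5 CON array 3 (adjusted p = 0.128), and leaving out any GD1.5 CON array left too few arrays above background to test it.

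Serpinb5 went from -1.37, -2.09, -2.32 and -1.78 to -4.99, -5.25 and -5.24 in GEN and from -1.85, -2.48 and -2.85 to -3.55, -4.43 and -4.63 in CON. Both exposures had every GD3.5 array below every GD1.5 array. Serpinb5 fell by 3.27 (SE 0.74, 9.63-fold, adjusted p = 0.0107) in GEN, a call lost without GD3.5 GEN array 3 (adjusted p = 0.0584) or 4 (adjusted p = 0.0595), with normexp (-2.01, adjusted p = 0.0628) and with quantile normalization (adjusted p = 0.0587). With capped normexp the GEN fall passed (-2.27, adjusted p = 0.00258). In CON Serpinb5 gave -1.81 (SE 0.80, adjusted p = 0.294). Serpinb8 fell by 1.01 (SE 0.26, adjusted p = 0.0238) in GEN, with -0.30 by its other probe. Its call was lost without GD1.5 GEN array 2 or any 1 of the GD3.5 GEN arrays (adjusted p = 0.0513 to 0.117). It was also lost with normexp (adjusted p = 0.212) and with the mean over its probes (adjusted p = 0.111), and was kept with capped normexp. Simple epithelium markers were at a mean of 2.49 to 2.69 in GD1.5 CON and 1.62 to 1.71 in GD3.5 CON, and at 1.98 to 2.80 and 1.43 to 1.71 in GEN. Of these 10, 2 fell in each exposure, and their part in the serpin falls was not tested.

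**Figure D3:**
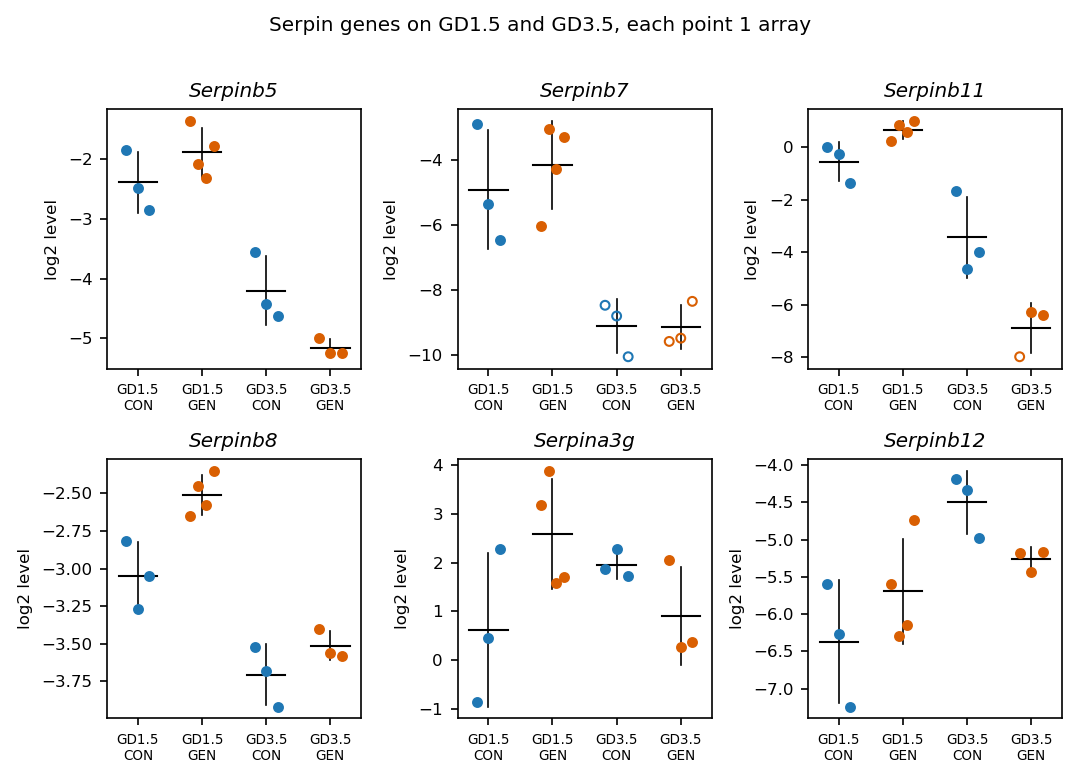
Log2 level relative to the array's 75th percentile on each GD1.5 and GD3.5 array for 6 serpins (points; blue CON, orange GEN; open circles not well above background), with the group mean as a line and the SD as a bar. Serpinb11 lies between -7.99 and -6.28 in GD3.5 GEN, below every other array, and all 6 GD3.5 arrays of Serpinb7 are open circles.

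Genistein and control uteri of the same day gave no serpin past the threshold. By limma 0 of 37 serpins tested passed on GD1.5, 0 of 35 on GD3.5, 0 of 41 on GD4.5 and 0 of 40 on GD5.5, where 0.0975%, 0.103%, 0.116% and 0% of all genes passed. At an unadjusted p under 0.05 the serpin counts were 5, 6, 4 and 3. The share of all genes at that threshold is not given here, so these counts and those below cannot be called high or low. Averaged over the 4 days 0 of 46 serpins passed, where 1% of all genes did, and 5 had an unadjusted p under 0.05. The GEN effect did not pass as different between GD3.5 and GD1.5 for any of 37 serpins (0% of all genes; 4 at an unadjusted p under 0.05) or between GD5.5 and GD4.5 for any of 45 (0.00443% of all genes; 3 at an unadjusted p under 0.05).

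On GD1.5, 26 of 37 serpins were higher in GEN by their means, with a median difference of 0.391 beside -0.011 over all genes. Serpina3g was at -0.86, 0.45 and 2.28 in CON and at 3.19, 3.88, 1.59 and 1.71 in GEN, and Serpina3f at -6.19, -4.81 and -3.26 in CON and at -1.55, -1.04, -3.81 and -3.74 in GEN. CON array 3 lay within the GEN range for both. The differences were 1.97 (SE 0.66, adjusted p = 0.494) and 2.22 (SE 0.72, adjusted p = 0.454), and that of Serpina3c, well above background on 3 of the 7 arrays, was 1.90 (SE 1.06, adjusted p = 0.941). Serpinb2, the plasminogen activator inhibitor PAI-2, gave 1.60 (SE 0.57, adjusted p = 0.545), and Serpina1d gave 1.15 (SE 0.61, adjusted p = 0.904). For 5 serpins, all higher in GEN, the groups did not overlap, where 8.33% of all genes did not (3.52% with GEN higher). Neutrophil markers had a mean level of -3.10 to -0.30 in GD1.5 CON and -0.23 to 1.68 in GD1.5 GEN, with the elastase gene Elane not well above background on any array. Adipocyte markers were at -4.43 to -1.78 and at -3.61 to 0.83, and the part of either cell type in these values was not tested.

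On GD3.5, Serpinb11 had the largest difference, -3.45 (SE 0.86, 10.9-fold, adjusted p = 0.156), and the CON and GEN arrays given above did not overlap. Its reading on GEN array 1, -7.99, was not well above background. The Serpinb11 difference ran from -3.75 to -1.62 over other ways of processing and from -4.05 to -2.57 with 1 array left out, and never passed. Serpina3n was at 0.38, -1.77 and -0.73 in CON and at -2.04, -2.32 and -2.53 in GEN, a difference of -1.59 (SE 0.72, adjusted p = 0.87). Serpina11 gave 1.63 (SE 0.71, adjusted p = 0.81). Groups of 3 and 3 did not overlap for 14 of 35 serpins, 4 of them higher in GEN, where 20.3% of all genes did not overlap (7.87% with GEN higher). Gland markers on that day had a mean of -1.48 to -0.16 in CON and -4.74 to -3.86 in GEN, and their part in the Serpinb11 difference was not tested.

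On GD4.5, Serpinb12 was at -3.94, -6.18, -5.26 and -4.35 in CON and at -8.4, -8.49, -4.59 and -6.96 in GEN, where only array 3 was well above background. The difference of -2.17 (SE 0.68, adjusted p = 0.251) did not pass. Without GEN array 3 no GEN array was well above background, so the GEN level then had only an upper bound; the fit's adjusted p was 0.0214 there. Serpina3b, well above background on 1 CON and 2 GEN arrays, all on slides 6 and 8, gave 1.18 (SE 0.71, adjusted p = 0.664). Serpina1d gave 1.10 (SE 0.56, adjusted p = 0.569), with GEN array 4 again the highest. On GD5.5, Serpina3a, well above background on 1 CON and 2 GEN arrays, also all on slides 6 and 8, gave 1.58 (SE 0.93, adjusted p = 1). Serpinb9g gave -1.37 (SE 0.62, adjusted p = 0.899). The groups did not overlap for 1 serpin on GD4.5 and 0 on GD5.5, where 4.14% and 1.72% of all genes did not.

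**Figure D4:**
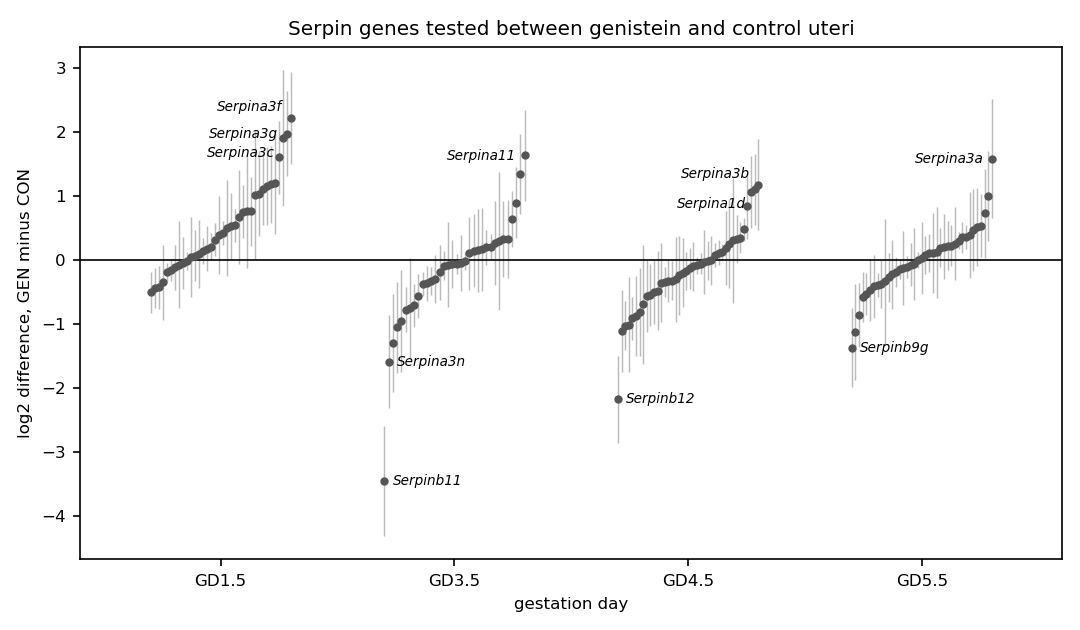
GEN minus CON difference in mean log2 level for the serpins tested, except 1 that is not drawn (points), day by day from GD1.5 to GD5.5, with the SE of the fit as a bar. No serpin passed an adjusted p of 0.05; Serpinb11 on GD3.5 (-3.45) is the point farthest from 0.

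Several circulating or matrix serpins passed in none of the 11 comparisons. Serpinc1, antithrombin, was at -3.98 to -3.26 in GD4.5 CON and -3.86 to -3.37 in GD5.5 CON (0.02, SE 0.24, adjusted p = 0.969). Serpine2, protease nexin-1, was at 0.07 to 1.36 and then at -0.04 to 0.24 in those groups (-0.47, SE 0.32, adjusted p = 0.306). Serpind1, heparin cofactor II, gave 0.11 (SE 0.48, adjusted p = 0.903) and Serpinf2, alpha2-antiplasmin, gave 0.07 (SE 0.57, adjusted p = 0.95). Serpina5, the protein C inhibitor, was well above background on 4 arrays, and Serpinb2 on 13. Serpina3n and Serpina3m gave -0.53 (adjusted p = 0.596) and -0.78 (adjusted p = 0.263) in the same comparison.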

How the data were processed

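Per the file headers, the deposited scanner files hold the authors' processed green intensity of each spot, and the series table held the same values (largest difference 0%). The submitters' processing notes name Agilent Feature Extraction 9.5. Log2 intensity minus each array's 75th percentile was computed; spots marked as outliers were left out, repeated spots averaged, and each gene read from its brightest probe. R 4.3.3 and limma 3.58.1 fitted all 29 arrays as 8 group means, and 11 comparisons were adjusted by Benjamini-Hochberg over the genes with a signal well above background on 3 or more of the arrays being compared. The fit was tested on simulated data. A group never well above background gives only a bound: "at least" folds set it at the lowest signal well above background on each array. Standard errors are those of the fit.

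Members and lists were chosen with earlier results of these data known. Named were called members (up to 8 per comparison by size), the 3 largest exposure differences per day, and a fixed list of serpin families; 37 genes in all, of which 1 is not reported here. Alternatives covered background correction, scaling, dim-probe filter, probe choice, slide, replicate number, arrays fitted and left-out arrays. All same-numbered CON and GEN pairs deviated together on GD5.5 (correlations 0.214 to 0.513), where 3 of the 4 pairs share a slide. Pair 3 of GD5.5, on different slides, had 0.214. Pairs that shared a slide on other days had -0.064 (GD1.5 pair 3), -0.078 (GD3.5 pair 1) and 0.093 (GD4.5 pair 1). The cause was not tested. On other days the correlations ran from -0.24 to 0.216, the highest being that of GD4.5 pair 2.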

Additional observations from a re-analysis of the deposited data

Results flagged for a closer look

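In 47 gene and group pairs of 4 arrays, 2 had an array far from the other 3 by Dixon's criterion, and chance marks about 1 in 20 groups. Serpina3a, an antichymotrypsin relative, was at -5.33 on GD5.5 CON array 4. The other 3 arrays were at -8.19 to -7.72 and were not well above background. GD5.5 CON array 4 was on slide 8. On GD4.5 and GD5.5, Serpina3a and Serpina3b were well above background only on arrays of slides 6 and 8. The part of the slide in these values was not tested. Serpinb5, maspin, was at -6.4 on GD5.5 CON array 1, where it was not well above background. The other 3 arrays, at -4.95 to -4.82, were well above background.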

How the results depend on the processing

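With normexp background correction the serpins called were 22 for GEN against CON on GD5.5 (9507 of all genes), 0 and 1 from GD1.5 to GD3.5 in CON and GEN, and 7 and 23 from GD4.5 to GD5.5. There Serpinb9g on GD5.5 turned to 0.91 (adjusted p = 0.0392). With normexp, the 5th percentile of intensity was 319, 540 and 249 on GD5.5 GEN arrays 1 to 3 and 401 on GD3.5 CON array 3. It was 59.1 to 154 on the other arrays. Normexp with high local backgrounds set to the median (capped normexp), chosen after seeing the data, gave 2 and 7 from GD1.5 to GD3.5. From GD1.5 to GD3.5 in CON, 0 passed under quantile normalization, slide as a fixed block, or only the compared arrays. From GD4.5 to GD5.5 in GEN, 5 passed with slide as a block and 0 with only the compared arrays. The cause was not tested. Leaving out 1 array gave 0 to 1 on GD4.5 for GEN against CON, 0 to 2 (CON) and 2 to 4 (GEN) from GD1.5 to GD3.5, 9 to 20 (CON) and 7 to 10 (GEN) from GD4.5 to GD5.5, and 0 in the other comparisons. The replicate block gave 1, 4, 18 and 9 for the 4 day comparisons and 0 elsewhere, and moved no count by over 1.5 times. Of 363 values for 21 called results that could be tested, 320 kept direction and call and 43 lost the call; 9 more left too few arrays above background to test.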
